A study of Arabidopsis thaliana with 36 samples.

Results

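SAUR19 to SAUR24 are 6 closely related genes that lie near each other on chromosome 5 of Arabidopsis thaliana. They were taken by locus, as AT5G18010 (SAUR19), AT5G18020 (SAUR20), AT5G18030 (SAUR21), AT5G18050 (SAUR22), AT5G18060 (SAUR23) and AT5G18080 (SAUR24), and are 6 of the 33540 genes in each table. All 6 had reads in every one of the 36 libraries, and all 6 passed the filter on low values in every test. In 2-day-old seedlings each of them was higher at 27 than at 22 °C in all 3 genotypes. In these comparisons 66.8 to 72.0% of all genes tested passed the limma test after adjustment. In 7-day-old seedlings 5 of the 6 had higher means at 27 °C in WT, but only SAUR22 passed (limma adjusted p = 0.020). Its adjusted p reached 0.097 with 1 library left out, and 57.4% of all genes tested passed. SAUR22 was not tested against the others. All 6 were lower in libraries labelled pif4-2 than in WT at both temperatures. There 24.8% of genes passed at 27 °C and 17.7% at 22 °C.

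Whole seedlings were grown on agar plates in short days of 8 h light and 16 h dark and were collected as the lights came on. The genotypes were hda9-1, which carries a mutation in HDA9, a histone deacetylase gene, pif4-2, which carries one in PIF4, a transcription factor gene, and the wild type (WT), all in the Col-0 background. Each genotype was grown at 27 or 22 °C and harvested at an age of 7 or 2 days, which gives 12 groups of 3 libraries (n = 3 for every group mean, SD or test group given here). Each library holds RNA combined from 3 harvested batches, each a pool of more than 50 seedlings, so p-values measure only the spread between such pooled libraries. Because whole seedlings were used, fewer cells of a type and less RNA per cell cannot be told apart.

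SAUR genes encode small, short-lived proteins, and many of them are switched on quickly by auxin. The proteins of the SAUR19 group inhibit clade D PP2C phosphatases, which otherwise keep plasma membrane H+-ATPases in a less active state. Active pumps acidify the cell wall, and their action is known for driving cell expansion, for example in the warmth-grown hypocotyl, where PIF4 acts upstream of auxin synthesis.

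The 6 loci are nearly alike in their coding sequence, which bears on how their reads can be counted. In the RefSeq annotation of build TAIR10.1 each has 1 exon. SAUR19 lies at chr5:5962773-5963405 on the minus strand, SAUR20 at chr5:5966183-5966677 on the minus strand and SAUR21 at chr5:5968352-5969190 on the plus strand. SAUR22 lies at chr5:5974341-5975087 on the minus strand, SAUR23 at chr5:5975780-5976589 on the plus strand and SAUR24 at chr5:5983683-5984308 on the plus strand. Over the 15 pairs of genes the coding sequences were 87.7 to 95.2% identical (median 91.2%) and the encoded proteins of 88 to 91 residues were 89.0 to 95.6% identical (median 93.3%). The stretch below is the longest run of coding bases that any 2 members share, 86 bases between SAUR19 and SAUR21, with the same place in the other members. It is shown because a read of 50 bases that falls inside it cannot be given to 1 of those 2 genes. Capitals mark the bases that differ from SAUR19.
SAUR19: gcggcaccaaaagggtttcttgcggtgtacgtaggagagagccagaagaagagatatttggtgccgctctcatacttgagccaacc
SAUR20: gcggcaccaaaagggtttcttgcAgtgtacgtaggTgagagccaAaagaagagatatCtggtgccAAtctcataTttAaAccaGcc
SAUR21: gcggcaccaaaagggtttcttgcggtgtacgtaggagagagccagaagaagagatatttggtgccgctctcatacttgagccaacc
SAUR22: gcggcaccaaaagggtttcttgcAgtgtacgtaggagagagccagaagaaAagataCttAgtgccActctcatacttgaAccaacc
SAUR23: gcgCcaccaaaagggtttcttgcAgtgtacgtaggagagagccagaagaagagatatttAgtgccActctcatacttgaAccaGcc
SAUR24: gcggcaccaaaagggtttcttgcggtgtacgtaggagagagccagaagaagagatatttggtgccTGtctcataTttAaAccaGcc

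In this stretch SAUR20 differed from SAUR19 at 10 bases, and SAUR22, SAUR23 and SAUR24 each at 6. The libraries were read as single reads of 50 bases, so each transcript was cut into all windows of 50 bases and each window was looked up in the genome on both strands. A window found once can be placed by an exact match, and one found again cannot. The share of windows found once was lowest for SAUR19, at 81.5% of the transcript and 67.4% of the coding part. It was 94.2% for SAUR20, 94.8% for SAUR21, 99.4% for SAUR22, 97.4% for SAUR23 and 92.9% for SAUR24. Every window found more than once lay in another member of the group, with 0 elsewhere in the genome. SAUR19 shared 41 windows with SAUR24, 37 with SAUR21, 26 with SAUR20 and 20 with SAUR23. The deposited tables set reads that could not be placed uniquely aside in a counting category of their own. Over all loci it ran from 6.05 to 8.42% per library of the reads in genes and in all counting categories together. How many of those came from these 6 genes cannot be read from the tables. The windows lost are the same in every library, so levels are compared between groups gene by gene below.

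**Figure D1:**
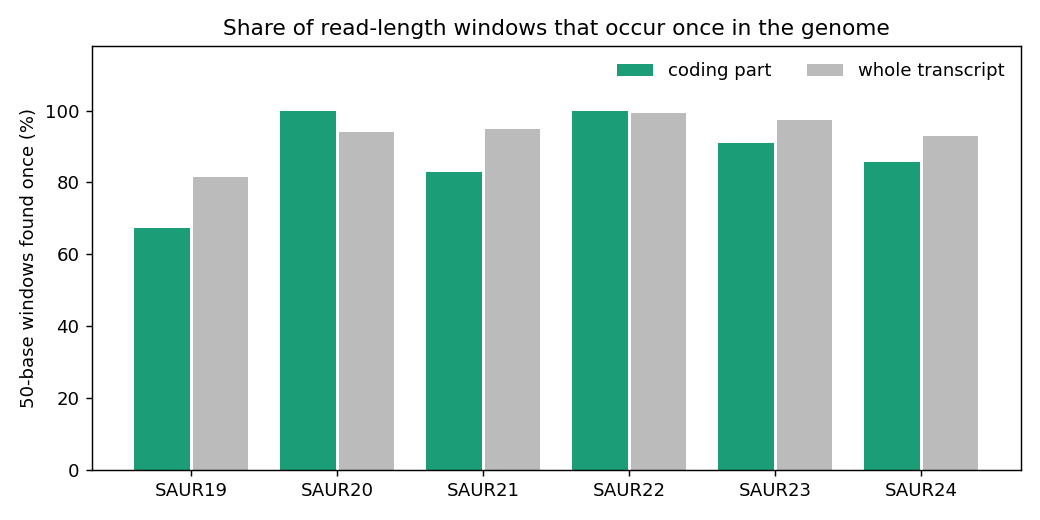
Share of 50-base windows that occur once in the genome (vertical axis, percent) for each of the 6 genes, for the coding part (green) and the whole transcript (grey). SAUR19 has the lowest bars, at 67.4% of its coding part and 81.5% of its transcript, and SAUR22 the highest for the transcript, at 99.4%.

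Upstream of the transcripts the genes were less alike than in their coding sequence, though they still shared runs of bases. The 200 bases before each annotated transcript start are shown because the 6 genes moved together in most comparisons. Capitals mark matches on either strand to CACATG, an E-box that PIF proteins are known to bind, and TGTCTC, the auxin response element, and no match of one overlaps the other.
SAUR19 upstream: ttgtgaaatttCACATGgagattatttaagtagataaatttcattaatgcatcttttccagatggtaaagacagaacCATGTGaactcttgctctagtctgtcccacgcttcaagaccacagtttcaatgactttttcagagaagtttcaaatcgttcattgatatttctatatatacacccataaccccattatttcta
SAUR20 upstream: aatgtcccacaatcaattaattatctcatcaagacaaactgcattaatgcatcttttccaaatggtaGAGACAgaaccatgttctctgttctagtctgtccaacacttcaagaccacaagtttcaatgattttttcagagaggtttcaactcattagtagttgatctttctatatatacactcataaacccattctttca
SAUR21 upstream: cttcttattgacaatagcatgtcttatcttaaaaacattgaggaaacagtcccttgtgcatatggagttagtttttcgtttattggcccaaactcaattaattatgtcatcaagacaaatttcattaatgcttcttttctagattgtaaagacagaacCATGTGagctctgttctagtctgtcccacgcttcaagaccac
SAUR22 upstream: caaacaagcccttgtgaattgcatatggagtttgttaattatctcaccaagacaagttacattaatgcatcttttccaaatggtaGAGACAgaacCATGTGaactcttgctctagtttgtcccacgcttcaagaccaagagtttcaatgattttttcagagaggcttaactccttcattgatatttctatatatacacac
SAUR23 upstream: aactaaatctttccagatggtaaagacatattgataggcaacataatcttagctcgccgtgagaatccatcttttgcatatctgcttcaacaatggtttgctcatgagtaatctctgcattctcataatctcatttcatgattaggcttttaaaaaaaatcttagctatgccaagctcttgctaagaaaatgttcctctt
SAUR24 upstream: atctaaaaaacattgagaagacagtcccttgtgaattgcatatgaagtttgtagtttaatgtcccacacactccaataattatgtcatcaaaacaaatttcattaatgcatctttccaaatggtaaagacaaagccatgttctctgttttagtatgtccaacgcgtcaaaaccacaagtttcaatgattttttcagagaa

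The run cattaatgc stood upstream of 5 of the 6 genes, all but SAUR23, and the longer run cattaatgcatcttt upstream of 4. SAUR20 and SAUR22 shared the longest upstream run of any pair, 41 bases. Within 250 bases upstream, CACATG was found in 3 of the 6 genes (SAUR19, SAUR21 and SAUR22), against 10.6% of 31462 upstream windows of the same length in the genome. TGTCTC was found in 2 of 6 (SAUR20 and SAUR22), against 10.8%. The G-box CACGTG was found in 0 of 6, against 5.92%, and TATAAA in 0 of 6, against 45.5%. In SAUR19, SAUR21 and SAUR22 a CACATG match lay in the same run, agacagaaccatgtga, and SAUR19 had a further match outside it. The TGTCTC matches of SAUR20 and SAUR22 both lay in their shared run of 41 bases. Matches in a shared run are not independent of each other, so the genome shares give no test of enrichment. A match is a description of these letters and not a binding site.

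Values below are normalised counts, which are the authors' read counts divided by 1 size factor per library. Each library held between 21906850 and 67795235 reads in genes (median 44904956.5), and the 6 genes together had 441 to 3890 reads per library. The smallest count of a member, 27 reads of SAUR19, has an exact 95% Poisson interval of 17.8 to 39.3, which covers counting error only. A gene is called, below, where limma gave a p under 0.05 after Benjamini-Hochberg adjustment across every gene in the test. Fold changes come from log2(value + 1). The 95% intervals of log2 differences use the normal distribution and the fitted SE. They are narrower than intervals matching the limma test would be. At 2 days, WT replicate 3 and pif4-2 replicate 3 had the highest level of nearly every member in their groups, at both temperatures. At 7 days and 22 °C, pif4-2 replicate 3 stood apart for SAUR19, SAUR20 and SAUR21. Over all genes it also differed from replicates 1 and 2 of its group, with a chi-square per gene of 76.87 and 76.35. Replicates 1 and 2 gave 4.72, where sampling noise alone gives 1, and 76.87 was the highest of 36 pairs of replicates. Some of the results that use these libraries are given with and without them.

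The mutated genes were read first as a check of the labels. HDA9 averaged 73.4 and 57.3 normalised counts in hda9-1 at 27 and 22 °C at 7 days, and 39.1 and 26.7 at 2 days. In WT it averaged 482 and 509 at 27 and 22 °C at 7 days, and 407 and 549 at 2 days. PIF4 averaged 4797 and 2301 in libraries labelled pif4-2 at 27 and 22 °C at 7 days, against 8096 and 3604 in WT. At 2 days it averaged 1802 and 853 in libraries labelled pif4-2 at 27 and 22 °C, against 1871 and 470 in WT. PIF4 was called lower than in WT at 7 days (log2 differences of -0.75 at 27 °C and -0.66 at 22 °C) and was not called at 2 days (-0.05 at 27 °C and 0.87 at 22 °C). The counts do not show which part of the gene they cover. The pif4-2 groups are named here by their label. In hda9-1, PIF4 averaged 5666 and 2152 at 27 and 22 °C at 7 days, and 3825 and 1256 at 2 days.

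The libraries of the 12 groups fell into 2 separate ranges by the summed count of the 6 genes. The lower range held 7 groups. Their lowest means were those of pif4-2 at 22 °C and 7 days (568 ± 38.8, SD), pif4-2 at 27 °C and 7 days (629 ± 75.4), pif4-2 at 22 °C and 2 days (642 ± 160) and WT at 22 °C and 2 days (665 ± 171). Above them by mean, but with overlapping libraries, came hda9-1 at 22 °C and 7 days (966 ± 152), at 27 °C and 7 days (1038 ± 101) and at 22 °C and 2 days (1109 ± 151). The higher range held WT at 22 °C and 7 days (1622 ± 107), WT at 27 °C and 7 days (1906 ± 430), and the 27 °C groups at 2 days of pif4-2 (1932 ± 262), WT (1969 ± 247) and hda9-1 (2027 ± 35.0). Along this order, neighbouring groups overlapped in their libraries except at 1 step, between hda9-1 at 22 °C and 2 days and WT at 22 °C and 7 days. The ends of the order differed between the genes. SAUR20 and SAUR24 were lowest in WT at 22 °C and 2 days, at 72.9 and 54.1, and the other 4 in pif4-2 at 22 °C and 7 days. SAUR20 was highest in WT at 22 °C and 7 days, at 256, SAUR22 in WT at 27 °C and 7 days, at 492, SAUR24 in pif4-2 at 27 °C and 2 days, at 149.6, and the other 3 in hda9-1 at 27 °C and 2 days.

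**Figure D2:**
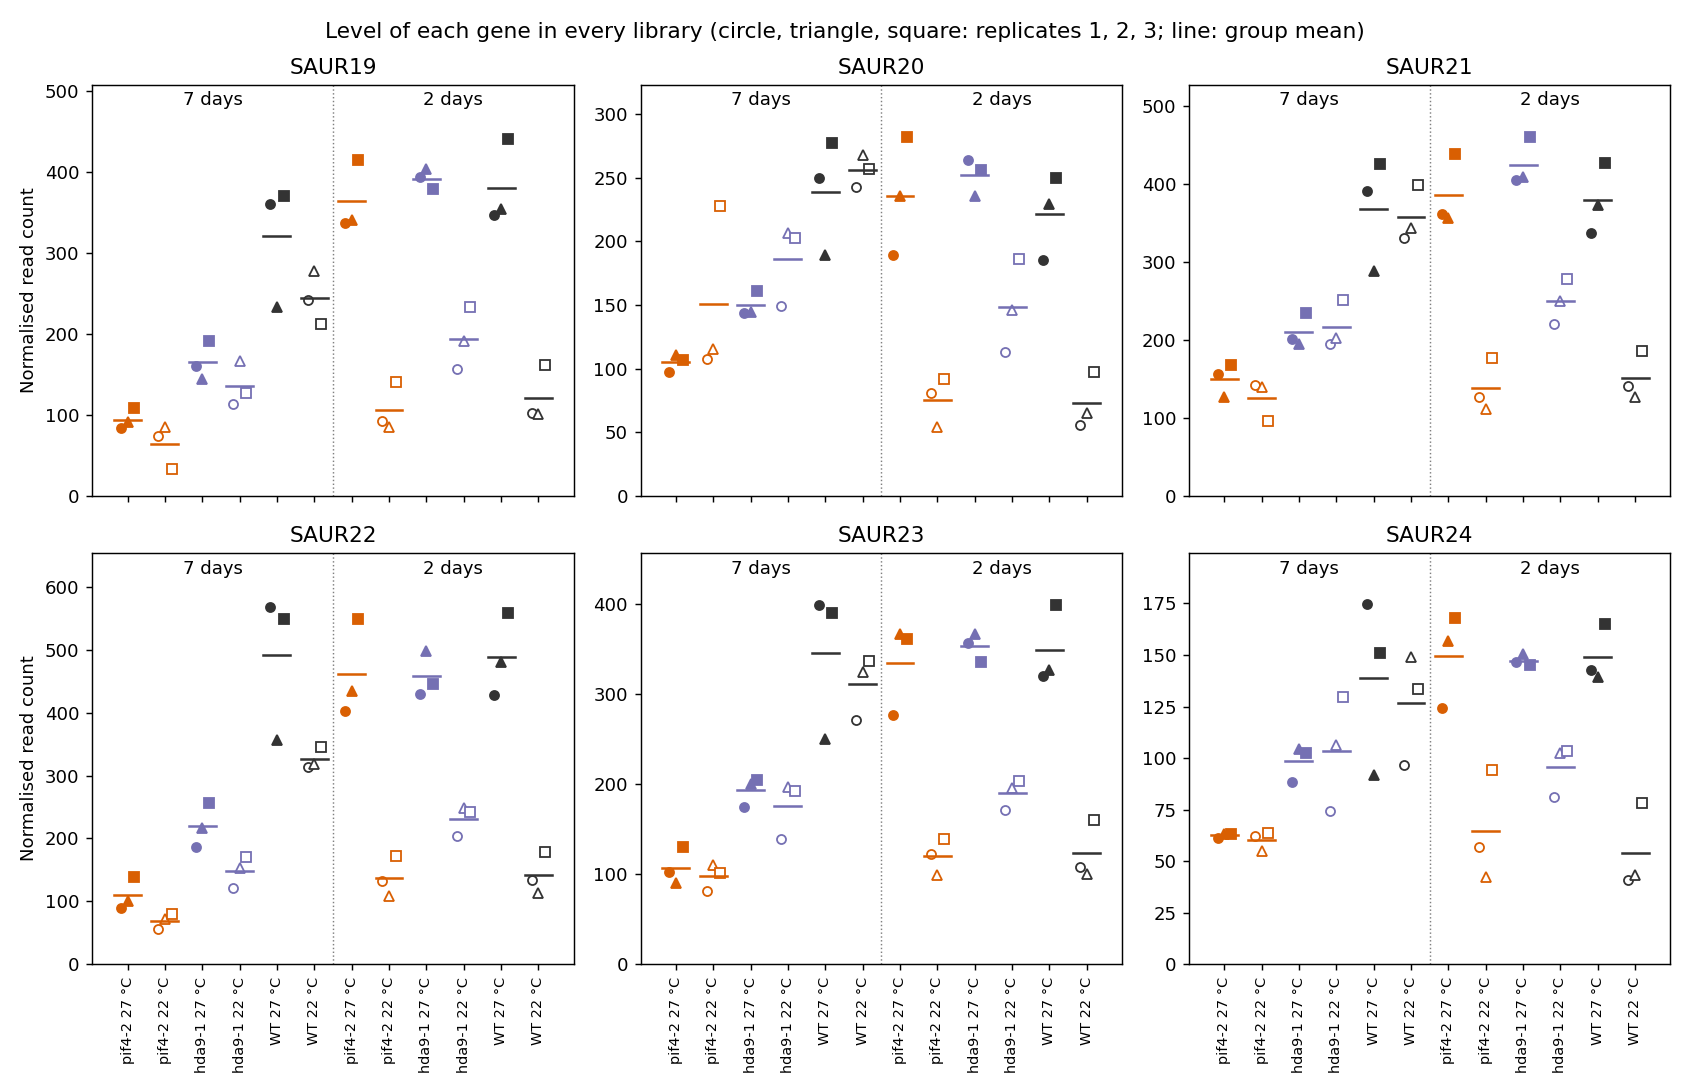
Normalised read count (vertical axis, from 0) of each gene in each of the 36 libraries, by group, with 27 °C filled and 22 °C open, 7 days left of the dotted line and 2 days right of it. Lines are group means of 3 libraries and the symbols are replicates 1 to 3. The 27 °C points at 2 days lie above the 22 °C points in every genotype, and at 7 days the orange pif4-2 points lie below the black WT points.

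Warmth at 2 days raised all 6 genes in all 3 genotypes. In WT, SAUR22 had 428, 482 and 559 normalised counts at 27 °C, against 134, 114 and 178 at 22 °C. SAUR19 had 347, 354 and 441 at 27 °C, against 101.9, 100.97 and 161 at 22 °C. The lowest warm library of each gene was above its highest cool library, so the groups did not overlap for any of the 6. Overlap was not counted over all genes tested, so here and below it only describes the libraries. SAUR22 changed most, 3.47-fold (log2 difference 1.80, SE 0.18, limma adjusted p = 2.01e-07), and SAUR21 least, 2.51-fold (1.33, SE 0.16, adjusted p = 2.20e-06). SAUR19, SAUR20, SAUR23 and SAUR24 rose 3.18, 3.07, 2.87 and 2.84-fold. This comparison called 6 of 6 members higher where 72.0% of the 21164 genes tested at 2 days were called in either direction, so a call by itself is the common case. The median log2 difference was 1.57 over the members and 0.01 over all genes tested.

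In libraries labelled pif4-2 the same change was seen at 2 days. SAUR22 had 403, 435 and 549 at 27 °C, against 132, 108 and 171 at 22 °C. SAUR19 had 337, 340.1 and 415 at 27 °C, against 92.2, 84.9 and 141 at 22 °C. All 6 rose, 2.41 to 3.48-fold, with 70.2% of genes called. In hda9-1 all 6 rose too, 1.54 to 2.04-fold, with 66.8% of genes called. In hda9-1, SAUR22 had 429, 499 and 446 at 27 °C, against 204, 248 and 242 at 22 °C, and SAUR19 had 393, 403 and 379 at 27 °C, against 156, 192 and 233 at 22 °C. SAUR24 changed least in hda9-1, with 147, 150.3 and 145 at 27 °C, against 81.1, 102 and 104 at 22 °C (log2 difference 0.63, SE 0.25, limma adjusted p = 0.037). That call was lost when any 1 of 5 hda9-1 libraries was left out, with adjusted p between 0.0013 and 0.13 over all alternatives. With replicate 3 of WT and of pif4-2 at 2 days left out, all 6 were still called in WT, 2.63 to 3.66-fold, and in pif4-2, 2.81 to 3.79-fold.

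**Figure D3:**
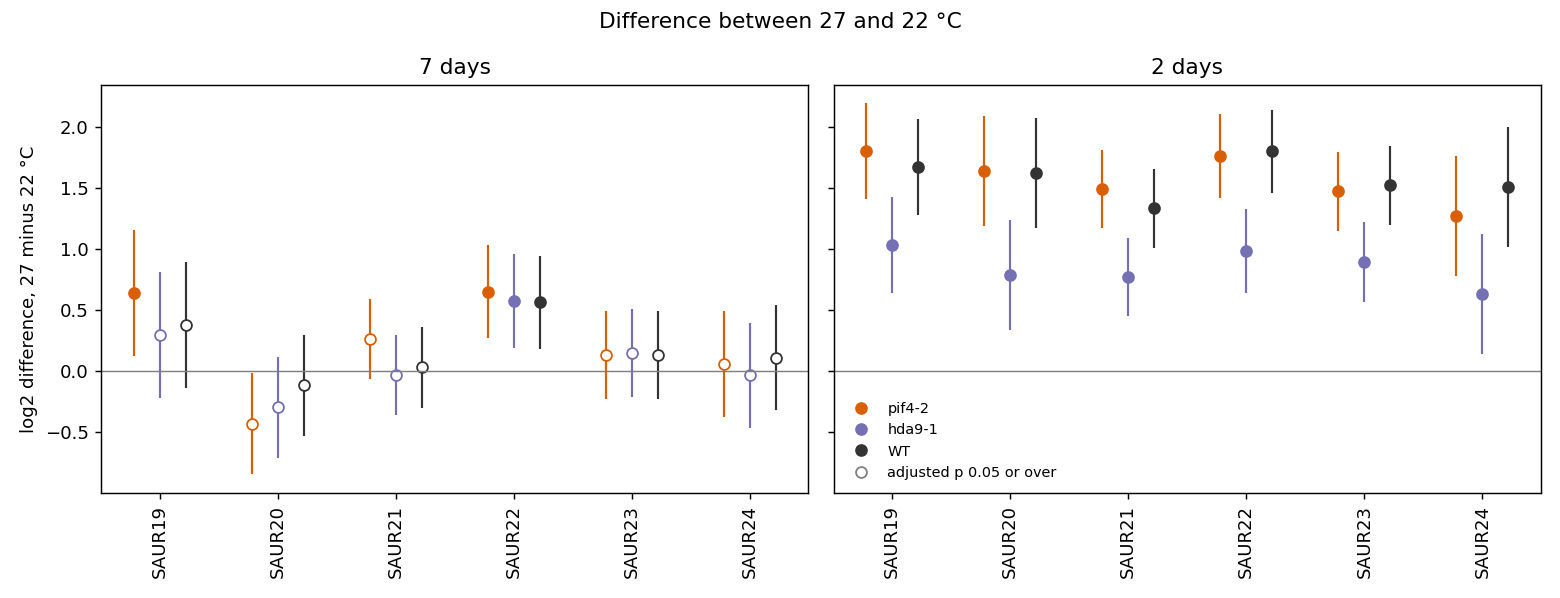
Difference between 27 and 22 °C for each gene (log2, vertical axis) in pif4-2 (orange), hda9-1 (purple) and WT (black), at 7 days (left) and 2 days (right). Bars are 95% intervals from the fitted SE and the normal distribution, narrower than those matching the limma test. Open points have an adjusted p of 0.05 or more. At 2 days every point is filled and above 0, and at 7 days SAUR22 alone is filled in all 3 genotypes.

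At 2 days members were called against WT in hda9-1 at 22 °C, and in none of the other 3 comparisons of a mutant with WT. SAUR20 had 113, 146 and 186 normalised counts in hda9-1 at 22 °C, against 55.9, 65.2 and 97.7 in WT, the largest of these differences at 2.04-fold (log2 difference 1.03, SE 0.23, limma adjusted p = 0.0022). SAUR23 had 172, 195 and 203 in hda9-1, against 108, 99.9 and 161 in WT, the smallest at 1.57-fold. All 6 genes were called higher, with 45.7% of genes called, and 5 of them did not overlap between the groups, the exception being SAUR19. Without replicate 1 or without replicate 2 of WT at 22 °C, SAUR19 and SAUR24 were no longer called, and without replicate 3 of hda9-1 SAUR19 was not. With replicate 3 of WT and of pif4-2 at 2 days left out, which lowers the WT level, all 6 were called. The differences then ran from 1.81-fold for SAUR23 to 2.39-fold for SAUR20. At 27 °C hda9-1 and WT gave 0 called members (limma; 0 with an unadjusted p under 0.05, 0 by edgeR and 0 by DESeq2), with 29.4% of genes called. The 95% intervals of these 6 log2 differences ran from -0.51 to 0.64.

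Libraries labelled pif4-2 gave 0 called members against WT at 2 days, at 22 °C and at 27 °C alike (limma; 0 with an unadjusted p under 0.05, 0 by edgeR and 0 by DESeq2 at each temperature), where 0.184% of genes were called at 22 °C and 0.184% at 27 °C. The 95% intervals of the log2 differences over the 6 genes ran from -0.59 to 0.72 at 22 °C and from -0.49 to 0.53 at 27 °C. PIF4 itself was not called lower in these 2-day libraries, as given above. The difference of the warmth response between pif4-2 and WT also gave 0 called members at 2 days (limma; 0 with an unadjusted p under 0.05, 0 by edgeR and 0 by DESeq2), with 0% of genes called.

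The warmth response at 2 days was smaller in hda9-1 than in WT for each of the 6 genes, by log2 differences of -0.56 to -0.88, but 0 were called (limma adjusted p from 0.083 for SAUR22 to 0.22 for SAUR19; 6 with an unadjusted p under 0.05, 0 by edgeR and 1, SAUR22, by DESeq2). In this comparison 2.71% of genes were called. The levels of WT replicate 3 at 22 °C were the highest of its group for every gene. Without that library 5 members were called, all but SAUR21, and with replicate 3 of WT and of pif4-2 left out at both temperatures 6 were called, with log2 differences of -0.63 to -1.10. The fit without those 4 libraries keeps replicate 3 of hda9-1. Leaving out WT replicate 3 at 22 °C, high for every gene, lowers the WT level there and so widens the tested difference. In the fit without the 4 libraries the adjusted p also moved where the difference did not. The warmth difference of SAUR21 in hda9-1 stayed at 0.77, and its limma adjusted p went from 0.00060 to 9.02e-06. What made the further calls was not tested. The libraries left out are high for these same genes, so the counts of 5 and 6 are not an independent test. The share of 2.71% is that of the fit with all libraries.

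Warmth at 7 days changed SAUR22 in WT and left the other 5 uncalled. SAUR22 had 569, 357 and 549 normalised counts in WT at 27 °C, against 314, 319 and 346 at 22 °C, so the groups did not overlap (1.48-fold, log2 difference 0.56, SE 0.19, limma adjusted p = 0.020). SAUR21 had 392, 288 and 426 at 27 °C, against 332, 344 and 399 at 22 °C, and SAUR20 had 249.7, 189 and 277 at 27 °C, against 243, 268 and 257 at 22 °C. Replicate 2 of WT at 27 °C was the lowest of its group for every gene. It lay below all of the cool libraries for SAUR20, SAUR21, SAUR23 and SAUR24. The share of genes called was 57.4% of the 21320 tested at 7 days. SAUR22 was no longer called without WT replicate 1 or 2 at 22 °C, or without WT replicate 1 or 3 at 27 °C, with adjusted p from 0.0027 to 0.097 over all alternatives.

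In libraries labelled pif4-2 at 7 days, SAUR22 had 88.8, 100.2 and 139 at 27 °C, against 56.0, 71.1 and 79.7 at 22 °C (1.57-fold, limma adjusted p = 0.0080). SAUR19 was the other gene called, with 83.4, 91.0 and 109 at 27 °C, against 74.4, 85.3 and 33.6 at 22 °C (1.56-fold, adjusted p = 0.044). The share of genes called was 60.1%. Without replicate 3 at 22 °C, SAUR19 gave 1.18-fold and was not called. It was also not called without pif4-2 replicate 2 or 3 at 27 °C, WT replicate 1 at either temperature, hda9-1 replicate 3 at 22 °C or hda9-1 replicate 1 at 27 °C, with adjusted p from 0.0088 to 0.31 over all alternatives. SAUR22 was not called without pif4-2 replicate 3 at 27 °C, with adjusted p from 0.0014 to 0.058. Without pif4-2 replicate 1 or 2 at 22 °C, SAUR20 was called lower at 27 °C. In hda9-1, SAUR22 had 187, 217 and 257 at 27 °C, against 121, 152 and 170.4 at 22 °C, and was the only member called (1.49-fold, adjusted p = 0.018), with 57.9% of genes called. That call was lost without hda9-1 replicate 1 at 22 °C or replicate 3 at 27 °C, with adjusted p from 0.0038 to 0.096 over all alternatives.

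No difference in the response between genotypes was called at 7 days. The difference of the warmth response gave 0 called members for pif4-2 against WT, with 2.10% of genes called, and 0 for hda9-1 against WT, with 3.53% called (limma; in each, 0 with an unadjusted p under 0.05, 0 by edgeR and 0 by DESeq2). The 95% intervals of these log2 differences were wide, from -0.90 to 1.00 for pif4-2 and from -0.81 to 0.65 for hda9-1. SAUR22, the only gene called higher with warmth in all 3 genotypes, had differences of 0.09 (SE 0.28) for pif4-2 and 0.01 (SE 0.28) for hda9-1.

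The level at 7 days depended strongly on genotype. At 27 °C, SAUR22 had 88.8, 100.2 and 139 normalised counts in libraries labelled pif4-2, 187, 217 and 257 in hda9-1, and 569, 357 and 549 in WT. SAUR23 had 102, 89.7 and 130 in pif4-2, 175, 199.7 and 204.5 in hda9-1, and 398, 249.5 and 390.1 in WT. For both genes no library of one genotype reached the range of another. At 22 °C, SAUR22 had 56.0, 71.1 and 79.7 in pif4-2, 121, 152 and 170.4 in hda9-1, and 314, 319 and 346 in WT. SAUR21 had 143, 140.3 and 95.9 in pif4-2, 196, 203 and 251 in hda9-1, and 332, 344 and 399 in WT. For these genes the 3 genotypes again did not overlap. SAUR24 overlapped between hda9-1 and WT at both temperatures, and SAUR20 between hda9-1 and pif4-2 at 22 °C.

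In pif4-2 all 6 genes were called lower than in WT at 7 days at both temperatures. The libraries of the 2 genotypes did not overlap for any member, which was not counted over all genes. At 27 °C the differences ran from 2.13-fold for SAUR24 (log2 difference -1.09, SE 0.22, limma adjusted p = 0.0013) to 4.45-fold for SAUR22 (-2.15, SE 0.19, adjusted p = 3.17e-07), with 24.8% of genes called. At 22 °C they ran from 1.80-fold for SAUR20 (-0.85, SE 0.21, adjusted p = 0.010) to 4.73-fold for SAUR22 (-2.24, SE 0.19, adjusted p = 5.71e-07), with 17.7% called. The median log2 difference over the members was -1.47 at 27 °C and -1.59 at 22 °C, and -0.01 over all genes tested at each temperature. SAUR20 had 108, 116 and 228 in pif4-2 at 22 °C, against 243, 268 and 257 in WT, and SAUR19 had 74.4, 85.3 and 33.6, against 242, 278 and 213 in WT. Replicate 3 of pif4-2 was thus the highest of its group for SAUR20 and the lowest for SAUR19, as it was for SAUR21. Without it each of these genes was still called, at 2.28-fold for SAUR20, 3.02-fold for SAUR19 and 2.51-fold for SAUR21. With it SAUR19 was at 4.00-fold and SAUR21 at 2.86-fold. With only the compared groups in the fit, SAUR20 was not called (adjusted p = 0.11, the highest over its alternatives, the lowest being 2.95e-05).

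In hda9-1 the genes were lower than in WT at 7 days by smaller steps. At 27 °C, 5 of 6 were called, from 1.57-fold for SAUR20 to 2.20-fold for SAUR22, with 34.3% of genes called. At 22 °C, 4 of 6 were called (SAUR19, SAUR21, SAUR22 and SAUR23), from 1.66-fold for SAUR21 to 2.22-fold for SAUR22, with 20.0% called. SAUR24 was called at neither temperature: it had 88.5, 104 and 103 in hda9-1 at 27 °C, against 175, 91.7 and 151 in WT, and 74.1, 106 and 130 in hda9-1 at 22 °C, against 96.9, 149 and 134 in WT. Its log2 differences were -0.45 (SE 0.22, limma adjusted p = 0.13) and -0.30 (SE 0.22, adjusted p = 0.36). At 27 °C the low library was replicate 2 of WT, and without it SAUR24 was called as well. Without WT replicate 1 at 27 °C, SAUR19 and SAUR20 were not called, which left 3 genes, and SAUR20 alone was not called without WT replicate 3 or without hda9-1 replicate 1 or 2. At 22 °C SAUR19 was not called without WT replicate 1 or 2, or without hda9-1 replicate 1 or 3, and SAUR20 was called without pif4-2 replicate 3. The comparisons of pif4-2 and hda9-1 with WT share the WT libraries.

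**Figure D4:**
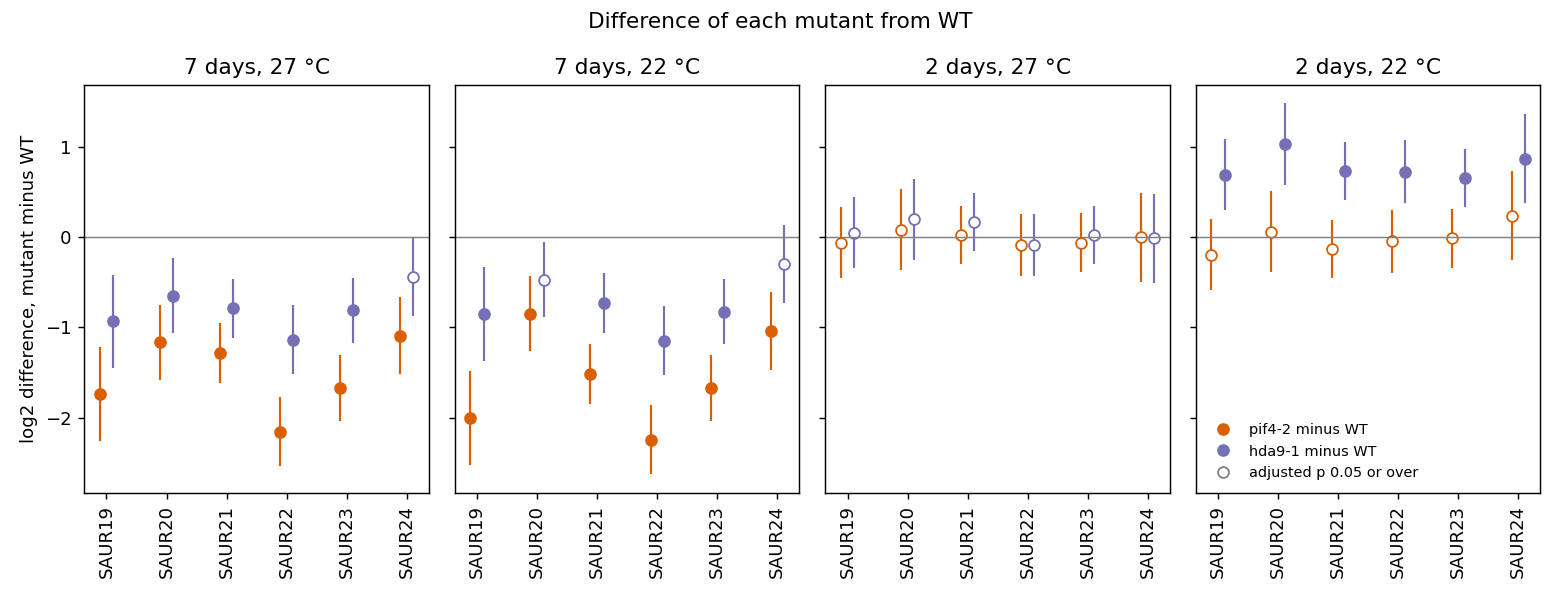
Difference of pif4-2 (orange) and hda9-1 (purple) from WT for each gene (log2, vertical axis), in panels from left to right for 7 days at 27 °C, 7 days at 22 °C, 2 days at 27 °C and 2 days at 22 °C. Bars are 95% intervals from the fitted SE and the normal distribution, narrower than those matching the limma test. Open points have an adjusted p of 0.05 or more. All orange points at 7 days are filled and lie between -0.85 and -2.24, and the purple points at 2 days and 22 °C are all filled and above 0.

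The mutants were also set against each other at 7 days, a comparison added after the first results were seen. At 22 °C, hda9-1 was higher than pif4-2 for 5 of 6 genes, all but SAUR20, from 1.66-fold for SAUR24 to 2.22-fold for SAUR19, with 31.9% of genes called. At 27 °C it was higher for 5 of 6, again all but SAUR20, from 1.41-fold for SAUR21 to 2.02-fold for SAUR22, with 29.5% called. SAUR20 had 149, 207 and 203 in hda9-1 at 22 °C, against 108, 116 and 228 in pif4-2, and 144, 145 and 161 in hda9-1 at 27 °C, against 97.2, 111 and 107 in pif4-2. Its groups overlapped at 22 °C through pif4-2 replicate 3 and did not overlap at 27 °C (limma adjusted p = 0.19 and 0.078). Without that replicate SAUR20 was called at both temperatures, at 1.64-fold at 22 °C. At 22 °C SAUR19 then gave 1.67-fold and SAUR21 1.515-fold, and both were still called. With the replicate number as a block, SAUR20 was called at 27 °C as well (adjusted p = 0.042, with 0.0053 to 0.19 over all alternatives). SAUR24 was not called at 22 °C without hda9-1 replicate 2 or 3. The count at 27 °C was 2 without pif4-2 replicate 1, without pif4-2 replicate 2 or without hda9-1 replicate 3, and 3 without hda9-1 replicate 1.

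The change between ages depended on genotype and temperature. In WT at 22 °C all 6 genes were higher at 7 than at 2 days, from 2.04-fold for SAUR19 to 3.57-fold for SAUR20, with 76.4% of the 21879 genes of the 36-library fit called. SAUR20 had 243, 268 and 257 at 7 days, against 55.9, 65.2 and 97.7 at 2 days. In WT at 27 °C the comparison of ages gave 0 called members (limma; 0 with an unadjusted p under 0.05, 0 by edgeR and 0 by DESeq2), 70.8% of genes called, and 95% intervals of the log2 differences from -0.75 to 0.55.

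In libraries labelled pif4-2 at 27 °C all 6 genes were lower at 7 than at 2 days, from 2.21-fold for SAUR20 to 4.24-fold for SAUR22, with 71.1% of genes called. In hda9-1 at 27 °C all 6 were lower at 7 days too, from 1.495-fold for SAUR24 to 2.37-fold for SAUR19, with 69.9% called. SAUR24 was not called there when any 1 of the 6 compared libraries was left out, with adjusted p from 0.0012 to 0.11 over all alternatives. At 22 °C the members went different ways. In pif4-2, SAUR20 was higher at 7 days (1.91-fold), SAUR19 (1.72-fold) and SAUR22 (a log2 difference of -0.97) were lower and the other 3 were not called, with 74.9% of genes called. Without pif4-2 replicate 3 of 7 days, SAUR19 had a log2 difference of -0.37 and was not called, nor was it without pif4-2 replicate 3 of 2 days, and SAUR20 had one of 0.59 and was still called. In hda9-1 at 22 °C, SAUR22 was lower at 7 days (1.57-fold) and was the only member called, with 73.0% of genes called. SAUR19, at 113, 167 and 127 at 7 days, against 156, 192 and 233 at 2 days, was the other gene with an unadjusted p under 0.05 and was called by edgeR and by DESeq2.

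The difference of the WT warmth response between ages was called for all 6 genes, with log2 differences of -1.24 for SAUR22 to -1.74 for SAUR20 (limma adjusted p from 6.61e-05 to 0.0032) and 47.4% of genes called. The difference of each mutant from WT was likewise set at 7 days against 2 days, a comparison added after the first results were seen. For pif4-2 at 27 °C the difference was lower at 7 days for all 6 genes, from -1.09 for SAUR24 to -2.07 for SAUR22, with 8.81% of genes called. For pif4-2 at 22 °C it was lower for 5, from -1.27 for SAUR24 to -2.19 for SAUR22, with 3.57% called. SAUR20 was the exception, at -0.91 (SE 0.33, adjusted p = 0.12), and was called without pif4-2 replicate 3 of 7 days, WT replicate 3 of 2 days or pif4-2 replicate 2 of 2 days. SAUR24 lay near the threshold at both temperatures and was lost when 1 of many of the libraries was left out, with adjusted p from 0.011 to 0.14 over all alternatives at 27 °C and from 0.0052 to 0.18 at 22 °C. For hda9-1 at 22 °C the difference was lower for all 6, from -1.17 for SAUR24 to -1.87 for SAUR22, with 23.8% called. SAUR24 was not called there without WT replicate 1 or 2 of 2 days or without hda9-1 replicate 1 of 7 days, with adjusted p from 0.00049 to 0.059 over all alternatives. In pairwise tests at 22 °C, hda9-1 was called above WT for all 6 genes at 2 days and below it for 4 (SAUR19, SAUR21, SAUR22 and SAUR23) at 7 days. In those tests 45.7% of all genes were called at 2 days and 20.0% at 7 days. For hda9-1 at 27 °C the difference was lower at 7 days for 3 (SAUR21, SAUR22 and SAUR23), from -0.83 to -1.05, with 15.6% called. SAUR23 was not called without WT replicate 1 or 2 or hda9-1 replicate 2 of 2 days at 27 °C, or without WT replicate 1 or 3 or hda9-1 replicate 1 of 7 days at 27 °C, which left 2 genes. The difference was lower for 5 when replicate 3 of WT and of pif4-2 at 2 days was left out, when WT replicate 2 at 27 °C and 7 days was left out, or when pif4-2 replicate 3 at 22 °C and 7 days was left out.

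The make-up of the summed count is given as a description. In WT, SAUR22 gave on average 25.8% of the sum at 27 °C and 20.2% at 22 °C at 7 days, and 24.8% and 21.4% at 2 days. In libraries labelled pif4-2 at 7 days its share was 17.3% at 27 °C and 12.1% at 22 °C, and in hda9-1 it was 21.1% and 15.3%. SAUR20 went the other way, with 26.2% in pif4-2 (libraries from 20.0 to 37.9%), 19.2% in hda9-1 and 15.8% in WT at 22 °C and 7 days. SAUR24 held the smallest share in all 12 groups, from 7.2 to 10.7% of the sum.

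**Figure D5:**
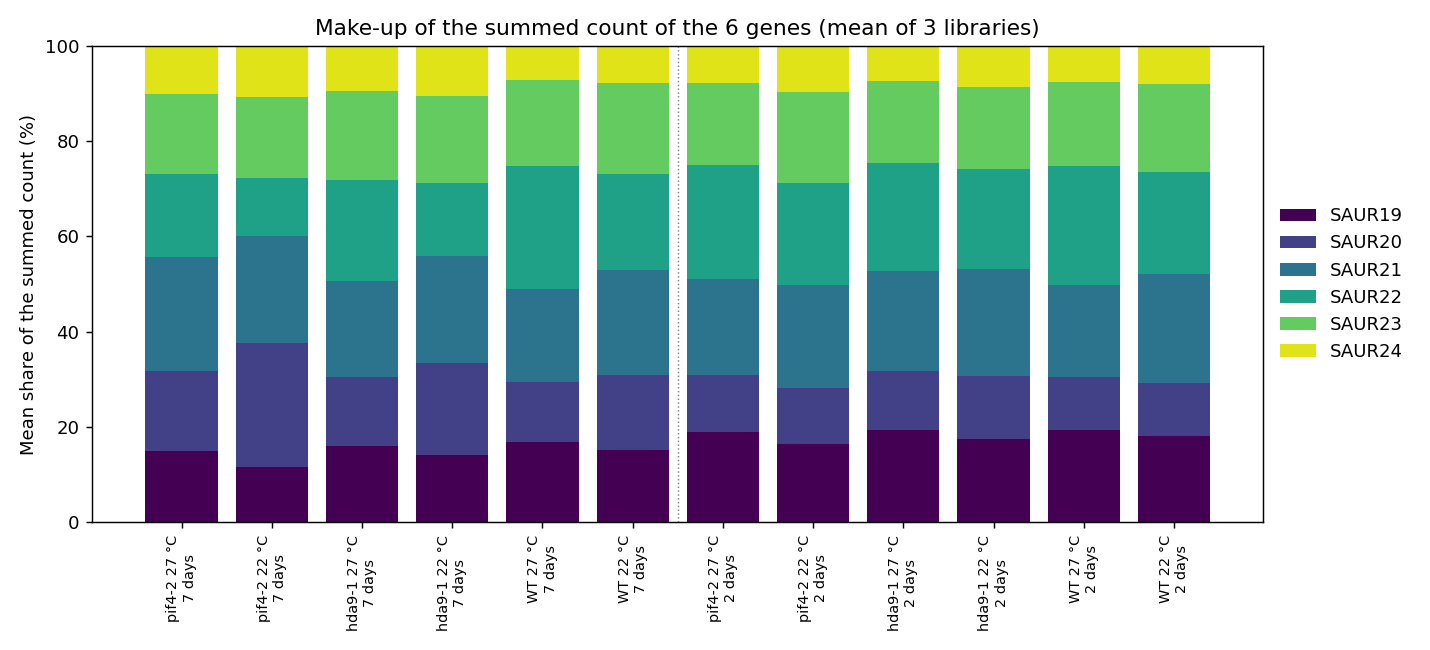
Mean share of the summed normalised count taken by each gene (vertical axis, percent) in each group, with 7 days left of the dotted line and 2 days right of it. SAUR22 shrinks to 12.1% and SAUR20 widens to 26.2% in pif4-2 at 22 °C and 7 days, against 20.2 and 15.8% in WT.

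Levels of different genes were compared per 1000 uniquely placed windows of 50 bases, which takes out transcript length and the share that cannot be placed. On this scale SAUR19 was highest in WT at 27 °C and 2 days, at 799.8, followed by SAUR22 at 705, SAUR20 at 527, SAUR21 at 507, SAUR23 at 470 and SAUR24 at 278. By plain normalised count SAUR22 was the highest there, at 489, followed by SAUR19, at 381, and SAUR21, at 379.6. SAUR24 had the lowest level per window in 11 of the 12 groups. The reads of the 6 loci were also summed to 1 feature, so that it did not matter which member a placed read was given to. In these comparisons the sum was called in the same direction as most members: 3.01-fold higher at 27 °C in WT at 2 days, 2.98-fold lower in pif4-2 and 1.81-fold lower in hda9-1 than in WT at 27 °C and 7 days. For warmth at 7 days the sum was called in no genotype (limma adjusted p = 0.23 in WT, 0.41 in pif4-2 and 0.53 in hda9-1). Nor was it called for the difference of the warmth response between hda9-1 and WT at 2 days (adjusted p = 0.12).

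The 6 genes varied together over the 36 libraries. Pearson's r of log2 values over the 15 pairs ran from 0.69 to 0.97 with a median of 0.92, as a description, since the libraries share groups and the genes share unplaceable reads. Outside the members, the genes whose 12 group means followed the mean of the 6 most closely, out of 21873, were AFP3 (r = 0.97), AT2G28040, annotated as an aspartyl protease family gene (0.96), AT3G06590, annotated as a bHLH family gene (0.95), SAUR29 (0.94) and AT1G67050, annotated as a membrane-associated kinase regulator (0.94). The size of a change is not part of r. The log2 group means spanned 1.90 for AFP3, 1.67 for AT2G28040, 1.34 for SAUR29, 1.17 for AT1G67050 and only 0.50 for AT3G06590. AFP3, named for binding of its family to the ABA-signalling factor ABI5, averaged 849 in pif4-2, 1177 in hda9-1 and 2386 in WT at 27 °C and 7 days. Among the other SAUR genes the next in likeness were SAUR7, SAUR28, SAUR27 and SAUR50, with r from 0.89 to 0.93.

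Other SAUR genes moved in both directions. Of 73 listed, 62 were tested at 2 days, and in WT 35 were higher and 11 lower at 27 than at 22 °C, with a median log2 difference of 0.73. With 72.0% of all genes called in that comparison, a call there is the common case. SAUR63 (3.54-fold), SAUR44 (2.61-fold) and SAUR78 (1.87-fold) rose, and SAUR11 fell 3.98-fold. In hda9-1 against WT at 22 °C and 2 days 29 were higher and 6 lower, where 45.7% of all genes were called, with SAUR16 3.43-fold and SAUR9 2.07-fold higher. At 7 days 58 were tested, and in pif4-2 2 were higher and 21 lower than in WT at 27 °C, where 24.8% of all genes were called, and 1 was higher and 14 lower at 22 °C, where 17.7% were. SAUR29 was 1.81-fold and SAUR26 1.89-fold lower at 27 °C, and SAUR28 2.45-fold and SAUR9 2.23-fold lower at 22 °C. In hda9-1 at 7 days 6 were higher and 10 lower than in WT at 27 °C, where 34.3% of all genes were called, and 2 were higher and 5 lower at 22 °C, where 20.0% were. SAUR32 was 1.46-fold and SAUR15 3.28-fold lower and SAUR78 was 1.68-fold higher at 27 °C.

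The 15 regulators listed upstream of these genes went both ways at 7 days. In pif4-2 against WT, 2 were higher (PIF7 and BES1) and 4 lower (PIF4, YUC8, IAA19 and IAA29) at 27 °C, where 24.8% of all genes were called. At 22 °C, PIF7 was higher and the same 4 were lower, where 17.7% were called. In hda9-1, 4 were higher (PIF5, PIF7, BES1 and TIR1) and 5 lower (HDA9, PIF4, YUC8, IAA19 and IAA29) at 27 °C, where 34.3% were called. At 22 °C, 2 were higher (BES1 and TIR1) and 6 lower (HDA9, PIF4, PIF5, YUC8, IAA19 and IAA29), where 20.0% were called. PIF7, a transcription factor related to PIF4, was 2.08-fold higher in pif4-2 than in WT at 27 °C. The called regulators of these 4 comparisons were named in full after their values were seen. YUC8, an auxin synthesis enzyme, had 242, 301 and 272 normalised counts in libraries labelled pif4-2 at 27 °C and 7 days, against 831, 807 and 861 in WT (3.07-fold lower, limma adjusted p = 9.49e-07). IAA29 and IAA19, auxin response repressors whose own genes auxin induces, were 5.64-fold and 5.51-fold lower. At 22 °C YUC8, IAA19 and IAA29 were 4.76, 5.42 and 11.7-fold lower in pif4-2. In hda9-1 IAA29 and IAA19 were 2.62-fold and 2.78-fold lower than in WT at 27 °C. At 2 days warmth raised YUC8 2.33-fold, IAA29 2.58-fold, TIR1, an auxin receptor, 1.64-fold and PIF4 3.96-fold in WT, and 10 of the 15 rose and 2 fell, a share near the 72.0% called over all genes. At 22 °C and 2 days hda9-1 had more YUC8 (2.01-fold) and PIF4 (2.71-fold) than WT, and 10 of the 15 were higher and 1, HDA9 itself, lower, where 45.7% of all genes were called.

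The phosphatases that SAUR19-group proteins inhibit, and the pumps these phosphatases hold back, are given as counts. All 9 clade D PP2C genes were tested. In WT at 2 days 7 were higher and 1 lower at 27 °C, where 72.0% of all genes were called, with the smallest adjusted p for PP2C.D7 (1.93-fold). At 7 days PP2C.D7 was lower in pif4-2 (1.61-fold at 27 °C and 1.78-fold at 22 °C) and in hda9-1 (1.71-fold and 1.59-fold) than in WT. In pif4-2 4 of the 9 were lower at 27 °C and 3 at 22 °C, and 0 were higher, where 24.8% and 17.7% of all genes were called at 27 and 22 °C. Of 11 H+-ATPase genes 10 were tested, and 7 rose and 1 fell with warmth in WT at 2 days, where 72.0% of all genes were called and AHA3 rose 1.68-fold and AHA7 fell 6.01-fold. In pif4-2 against WT at 7 days 1 was higher and 1 lower at 27 °C, and 3 were lower and 0 higher at 22 °C, against the same 24.8% and 17.7% over all genes, with AHA11 1.51-fold lower.

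Of 8 other genes annotated between the members, 3 were tested. HTT2 and HTT3, heat-induced TAS1 targets, and DRT101 passed the filter, and the rest did not or were not analysed here. HTT2 had 1032, 999.7 and 1175 normalised counts in WT at 27 °C and 7 days, against 461, 436 and 484 at 22 °C (2.31-fold, limma adjusted p = 1.52e-08), and it rose in all 3 genotypes at both ages. At 27 °C and 7 days it was 1.59-fold higher in hda9-1 than in WT, where 5 members were lower, and it averaged 1055 in pif4-2, against 1069 in WT. DRT101 fell 1.41-fold with warmth in WT at 2 days, where all 6 members rose.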

How the data were processed

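RNA from 36 pools of whole seedlings was sequenced with the Illumina TruSeq kit as single reads of 50 bases, per the labels. The build TAIR10 and the tools HTSeq, DESeq, Bowtie, TopHat2 and FastQC are listed in the submitters' processing notes. The deposited values are a signal per gene, a read count that the authors scaled by a size factor of the library. Each table lists 33540 genes, and 5 further categories of reads stayed out of library sizes and tests. Whole reads were recovered for 100% of values within 0.01. The strand setting is not given in the sources used here.

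Groups follow the labels, 12 of 3 libraries. The test was the two-sided moderated test of limma 3.58.1 under R 4.3.3, with a mean-variance trend, on log2(value + 1). Genes were tested if 3 or more libraries reached a value of 10. The 18 libraries of an age were fitted together, and all 36 for comparisons between ages, and p-values were adjusted over all genes tested. The scripts were tested on simulated data. Sequences, names and windows come from RefSeq TAIR10.1, read by locus, since the tables hold no coordinates. The 6 genes are always named, and of each list up to 4 called genes per comparison with the smallest adjusted p could be named, of which the text gives part. 1 gene named SAUR21 in the reference was dropped from the SAUR list because its product is of another family. The members and lists were chosen with earlier results of these data known, and 6 of the 31 comparisons were added after the first results were seen. Replicates differed beyond sampling noise in all 36 pairs, so none was merged. Alternatives tried were no filter, a pseudocount of 8, TMM factors, edgeR 4.0.16, DESeq2 1.42.0, only the compared groups in the fit, the replicate number as a block, each library left out, 4 libraries left out together, and the 6 loci summed. The replicate numbers were taken to pair libraries where all 3 correlations of their deviations were over 0.1, which held for warmth in pif4-2 at 2 days and in hda9-1 at 7 days, for pif4-2 against WT at both temperatures and hda9-1 against WT at 27 °C at 2 days, and for hda9-1 against pif4-2 at 27 °C and 7 days.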

Additional observations from a re-analysis of the deposited data

Results flagged for a closer look

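Each of the following differences of a difference was called by its own interaction test (limma, adjusted p under 0.05 over all genes). Of all genes tested, 47.4% were called for the WT warmth response between ages. For pif4-2 against WT between ages 8.81% were called at 27 °C and 3.57% at 22 °C. For hda9-1 against WT between ages 15.6% were called at 27 °C and 23.8% at 22 °C. The warmth response in WT was smaller at 7 than at 2 days for every gene, with log2 differences of -1.29 for SAUR19, -1.74 for SAUR20, -1.30 for SAUR21, -1.24 for SAUR22, -1.39 for SAUR23 and -1.40 for SAUR24.

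The difference of pif4-2 from WT was lower at 7 than at 2 days. At 27 °C this came to -1.67 for SAUR19, -1.24 for SAUR20, -1.30 for SAUR21, -2.07 for SAUR22, -1.61 for SAUR23 and -1.09 for SAUR24. At 22 °C it came to -1.81 for SAUR19, -1.38 for SAUR21, -2.19 for SAUR22, -1.66 for SAUR23 and -1.27 for SAUR24. SAUR22 had the largest value at both temperatures. PIF4 was called lower than in WT in these libraries at 7 days and was not called at 2 days, and the part of that in the difference was not tested.

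The difference of hda9-1 from WT was also lower at 7 than at 2 days. At 22 °C it came to -1.54 for SAUR19, -1.50 for SAUR20, -1.46 for SAUR21, -1.87 for SAUR22, -1.48 for SAUR23 and -1.17 for SAUR24. In pairwise tests at 22 °C, hda9-1 was called above WT for 6 genes at 2 days and below it for 4 at 7 days. In those tests 45.7% of all genes were called at 2 days and 20.0% at 7 days. At 27 °C the age difference of hda9-1 from WT came to -0.96 for SAUR21, -1.05 for SAUR22 and -0.83 for SAUR23.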

How the results depend on the processing

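Over 5958 values of single genes under the alternatives, no called difference turned its sign. For many of these values the sign could not turn. A left-out library outside the compared groups leaves the difference as it was. So do the replicate block, the missing filter and the fit of the compared groups alone, which change only the p-value. Leaving out 1 library ended a call in 94 values and made one in 25, and the other alternatives ended 13 and made 33. Under the replicate block, the smaller warmth response of hda9-1 at 2 days was called for 6 members in place of 0, and the age difference of hda9-1 from WT at 27 °C for 5 in place of 3. The replicate numbers did not pair the libraries of either comparison (lowest correlations -0.14 and -0.046), so these block counts are no better test. The smaller response was also called for 1 by DESeq2 and for 6 with replicate 3 of WT and pif4-2 at 2 days left out, libraries high for these same genes. The age difference gave 5 by DESeq2, with those 4 libraries left out and in a fit of the compared groups alone. Warmth in pif4-2 at 7 days called 1 in place of 2 with no filter, by edgeR and with only the compared groups. The age change of hda9-1 at 22 °C called 2 in place of 1 by edgeR, by DESeq2, with only the compared groups and with the 4 libraries left out. The age difference of pif4-2 from WT at 22 °C called 3 in place of 5 with only the compared groups. The cause was not tested in any of these.

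With 1 library left out, the number of members called ran from 0 to 5 for the smaller response of hda9-1 at 2 days. At 7 days it ran from 0 to 1 for warmth in WT, from 0 to 3 in pif4-2 and from 0 to 1 in hda9-1. For hda9-1 against WT at 7 days it ran from 3 to 6 at 27 °C and from 3 to 5 at 22 °C, and for hda9-1 against pif4-2 from 2 to 6 at 27 °C and from 4 to 6 at 22 °C. It ran from 1 to 2 for the age change of hda9-1 at 22 °C, from 2 to 3 for that of pif4-2, from 2 to 5 for the age difference of hda9-1 from WT at 27 °C and from 4 to 6 for that of pif4-2 at 22 °C. All pairwise differences of pif4-2 from WT at 7 days stayed at 6 members, as did the rise with warmth at 2 days in WT and in pif4-2. TMM factors moved no median over all genes by more than 0.1. Reads shared between SAUR19 and its neighbours in sequence limit how far the single genes can be told apart.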
